A study of Mus musculus with 16 samples.

Results

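The genes described here are the tumour necrosis factor (TNF) and TNF receptor superfamilies in 2 mouse lymphoid cell lines. They were chosen by symbol: every gene whose symbol starts with Tnfrsf or Tnfsf, plus Fas, Fasl, Cd27, Cd40, Cd40lg, Cd70, Tnf, Lta, Ltb and Ltbr. The rule found 43 of 38293 genes, made up of 24 receptors, 17 ligands, the antisense RNA Tnfsf13os and the readthrough gene Tnfsfm13. P6D4 is a line of the SCID.adh murine thymic lymphoma, labelled DN3, an early thymocyte stage at which the T cell receptor beta chain is rearranged. 70Z/3 is a lymphoblast line labelled Pre-B. Neither line carried a stated treatment, and RNA-Seq was done on 3 libraries of each. Lineage, tumour origin and line cannot be told apart with 1 line per lineage. In bulk RNA, fewer cells with a transcript and less RNA per cell cannot be told apart either. No label names separate cultures for the libraries, and the spread behind the p-values may therefore be technical.

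The libraries held 48255176 to 54815145 counts in genes for P6D4 and 45481949 to 48885150 for 70Z/3. No pair was identical, and chi-square per degree of freedom between replicates was 2.46 to 13.8, above sampling noise. The labels were checked against lineage markers in CPM, the counts scaled to library size. All 8 DN3 thymocyte markers reached 1 CPM in each P6D4 library, against 2 of 8 in 70Z/3 (Lck and Notch1). Of 8 pre-B markers, 0 reached it in P6D4 and 8 did in 70Z/3. Of the markers of other cells, 5 dendritic and 3 epithelial markers stayed under 1 CPM in both lines. Their sums were at most 0.246 CPM in P6D4 and 0.404 CPM in 70Z/3, with all 3 epithelial markers at 0 in P6D4 and 2 of 3 in 70Z/3. The 7 myeloid markers summed to 31.0 to 37.8 CPM in P6D4 and 24.2 to 26.3 CPM in 70Z/3, the 5 NK markers to 3.88 to 5.22 CPM and 23.0 to 24.7 CPM, and the 6 stromal and endothelial markers to 60.9 to 69.7 CPM and 81.2 to 87.4 CPM. Of these lists, Lyz2, Itgam, Cd68, Nkg7, Pdgfrb and Pecam1 reached 1 CPM in each P6D4 library. In 70Z/3, Lyz2, Csf1r, Itgam, Cd68, Klrb1c, Klrd1 and Pecam1 did. Single markers differed in both directions: Itgam averaged 29.1 CPM in P6D4 and 7.07 CPM in 70Z/3, and Klrd1 0 and 21 CPM. The part of these markers in the results was not tested.

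TNF superfamily ligands are mostly trimeric membrane proteins, some of which are shed, and they act on receptors of neighbouring cells or of the same cell. The receptors fall into those with a death domain, such as Fas and Tnfrsf1a, which can recruit caspases, and those that bind TRAF adaptors and activate the factor NF-kB, such as Cd27, Cd40 and Tnfrsf1b. A further set are decoys without signalling. In lymphocytes these molecules are known for survival, costimulation, the building of lymphoid organs and deletion of cells.

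Of the 43 genes, 28 had enough counts to be tested and 15 did not. Against no change, 10 were higher and 15 lower in P6D4 and 3 were not called (edgeR quasi-likelihood test, Benjamini-Hochberg adjusted p under 0.05 over all genes). The background was 86.5% of the 13750 genes tested (43.3% higher and 43.2% lower), so such a call says little about a gene here. Against a 2-fold difference (edgeR glmTreat), 6 were higher and 12 lower in P6D4, where the background was 35.2% of genes tested (16.6% higher and 18.6% lower). A gene read in 1 line only passes the count filter through that line, so the share of members called supports nothing about the family. The median log2 fold change of P6D4 over 70Z/3 was -0.79 over the 28 genes and 0.01 over all genes tested. The libraries of the lines did not overlap for 25 of the 28, against 87.4% of all genes tested. CPM are not corrected for transcript length, so levels are compared between lines for the same gene and not between genes.

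**Figure D1:**
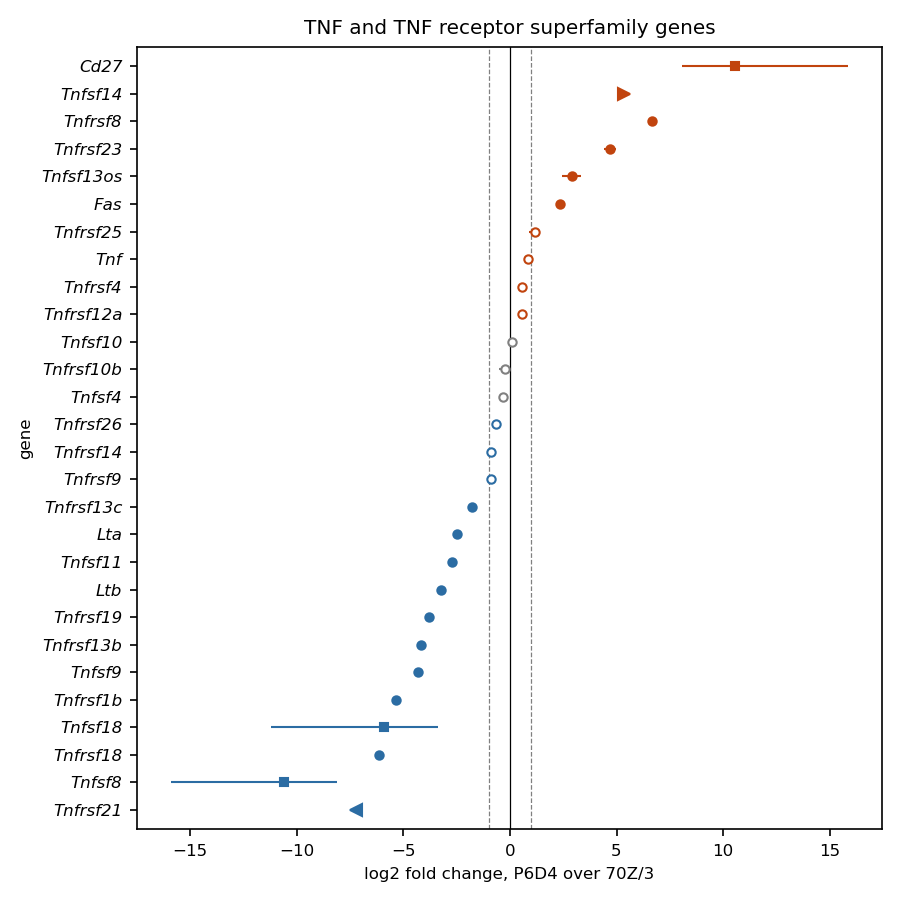
Log2 fold change of P6D4 over 70Z/3 (x axis) for the 28 members tested (y axis); circles show the edgeR estimate with its SE, filled past 2-fold, open if called against no change only and grey if not called. Squares are ratios with a 95% counting interval where the lower line had 1 to 3 counts, triangles are lower bounds where it had 0, and dashed lines mark a 2-fold difference. Cd27 and Tnfsf8 lie at opposite ends with intervals that start at 270-fold and 278-fold.

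Among the 17 receptors tested, 4 were more than 2-fold higher in P6D4 (edgeR glmTreat, background 16.6% of genes tested). Of these, 3 were close to absent from 70Z/3. Cd27, the costimulatory receptor for Cd70, had 10.2, 10.3 and 11.8 CPM in P6D4, against 0.0213, 0 and 0 CPM in 70Z/3. With 1 count in all of 70Z/3, its ratio was 1506 in favour of P6D4, with an exact 95% counting interval of 270 to 59503 (edgeR adjusted p against 2-fold 1.19e-12). The gene lies on chromosome 6 at chr6:125232620-125237136, and all P6D4 libraries stood far above all 70Z/3 libraries. Tnfrsf8, which encodes CD30 (chr4:145267132-145315164), had 13.1, 13.2 and 16.4 CPM in P6D4, against 0.0638, 0.104 and 0.244 CPM in 70Z/3. Its log2 fold change was 6.68 ± 0.22 (SE; adjusted p against 2-fold 1.07e-11), and it was 7.35 without 70Z/3 replicate 3. Here and below, the SE understates counting error where 1 line has few counts, as with the 3, 5 and 11 counts of Tnfrsf8 in 70Z/3.

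Tnfrsf23, a decoy receptor for the TRAIL ligand in the mouse, had 2.61, 3.51 and 3.49 CPM in P6D4, against 0.106, 0.186 and 0.0666 CPM in 70Z/3. The difference was 4.69 ± 0.27 on the log2 scale (SE; adjusted p against 2-fold 1.08e-08), with no overlap between the lines. Its neighbour Tnfrsf22, another decoy, had 1 count in P6D4 and 1 in 70Z/3. The 2 genes are related copies, and reads with more than a single alignment were set apart from the counts, so their levels are uncertain. Fas, the death receptor of the extrinsic apoptosis pathway (chr19:34290647-34327775), had 8.54, 11.0 and 10.9 CPM in P6D4, against 2.23, 1.76 and 2.04 CPM in 70Z/3. It was the member of this group that both lines held clearly, and its fold was 5.02.

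Of the 17 receptors tested, 6 were more than 2-fold lower in P6D4 (background 18.6% of genes tested). They included both receptors for the B cell survival factor BAFF that could be tested. Tnfrsf13b, which encodes TACI (chr11:61126283-61153170), had 8.29, 7.93 and 7.29 CPM in P6D4, against 143, 140 and 136 CPM in 70Z/3. It was 17.8-fold lower in P6D4, or -4.15 ± 0.05 on the log2 scale (SE; edgeR adjusted p against 2-fold 3.2e-16). Tnfrsf13c, which encodes the BAFF receptor (chr15:82221742-82224380), had 4.96, 6.28 and 6.59 CPM in P6D4, against 19.7, 19.0 and 21.7 CPM in 70Z/3. The difference was smaller, 3.39-fold, and both genes were read in every library of the thymic line. Tnfrsf17, the BCMA receptor for the same ligands, was at 0 to 3 counts in P6D4 libraries and 0 to 1 in 70Z/3 libraries.

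Tnfrsf19, which encodes TROY, a receptor best known from the nervous system and skin (chr14:60963834-61046855), had 17.6, 16.0 and 14.6 CPM in P6D4, against 229, 218 and 223 CPM in 70Z/3. Its log2 fold change was -3.80 ± 0.06 (SE; adjusted p against 2-fold 2.19e-15). Tnfrsf1b, the TNF receptor without a death domain (chr4:145212368-145246870), had 0.937, 0.892 and 1.13 CPM in P6D4, against 37.1, 39.1 and 41.9 CPM in 70Z/3. It was 40.0-fold lower in P6D4, a log2 fold change of -5.32 ± 0.09 (SE). Tnfrsf1b and Tnfrsf8 lie close together on chromosome 4, and they differed in opposite directions. Tnfrsf18, which encodes the costimulator GITR, had 0.0901, 0.0379 and 0.205 CPM in P6D4, against 8.19, 7.85 and 7.26 CPM in 70Z/3. With 17 counts in all of P6D4, its log2 fold change was -6.13 ± 0.22 (SE), and it was -6.85 without P6D4 replicate 3, which held 10 of these counts. Tnfrsf21, the death-domain receptor DR6 (chr17:43016555-43089188), had no count in any P6D4 library, against 9.51, 8.47 and 9.37 CPM in 70Z/3. With 3 counts per library as the floor, or 0.0616 CPM, it was at least 148-fold lower in P6D4.

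**Figure D2:**
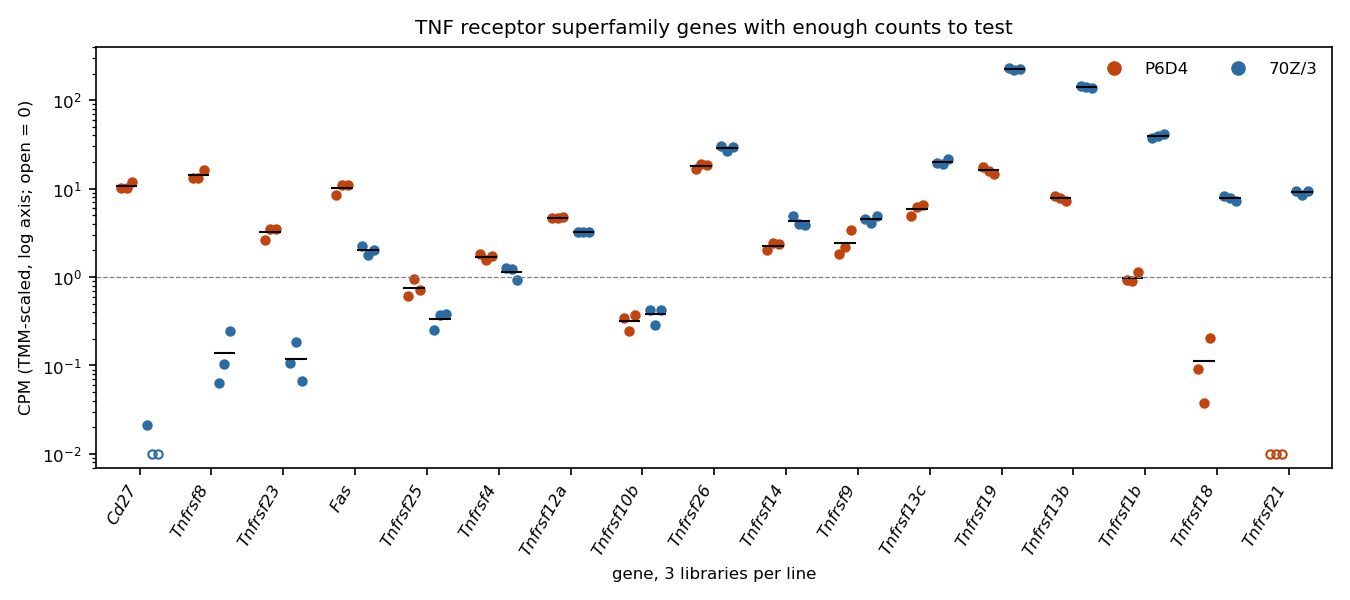
CPM on a log axis for the 17 receptor genes tested (x axis, ordered by log2 fold change); points are single libraries, P6D4 left of 70Z/3, open points at the bottom are libraries at 0, the bar is the mean of the 3 libraries where none is 0, and the dashed line is 1 CPM. Tnfrsf19 and Tnfrsf13b in 70Z/3 exceed 100 CPM, while Tnfrsf21 is at 0 in each P6D4 library.

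The other 7 receptors differed by less or were not called past 2-fold. Tnfrsf26, a mouse receptor of the same chromosome 7 cluster as Tnfrsf22 and Tnfrsf23, had 16.7, 19.0 and 18.7 CPM in P6D4, against 30.0, 26.5 and 29.7 CPM in 70Z/3 (log2 fold change -0.66 ± 0.07, SE). Tnfrsf14, which encodes HVEM, had 2.00, 2.43 and 2.38 CPM in P6D4, against 4.96, 3.98 and 3.86 CPM in 70Z/3. Tnfrsf9, the costimulator 4-1BB, had 1.80, 2.16 and 3.37 CPM in P6D4, against 4.57, 4.12 and 4.95 CPM in 70Z/3. Both were lower in P6D4 against no change, at -0.91 ± 0.13 and -0.91 ± 0.18 on the log2 scale (SE), and the 3 P6D4 libraries of Tnfrsf9 were spread widely, with P6D4 replicate 3 the highest. Tnfrsf12a, the TWEAK receptor, had 4.65, 4.65 and 4.82 CPM in P6D4, against 3.26, 3.21 and 3.20 CPM in 70Z/3. It was 1.46-fold higher in P6D4 with no overlap between the lines. Tnfrsf4, which encodes OX40, had 1.82, 1.56 and 1.74 CPM in P6D4, against 1.28, 1.24 and 0.933 CPM in 70Z/3. Tnfrsf25, the death receptor DR3, had 0.613, 0.949 and 0.718 CPM in P6D4, against 0.255, 0.373 and 0.378 CPM in 70Z/3. Both were called higher in P6D4, by 0.56 ± 0.16 and 1.17 ± 0.26 on the log2 scale (SE; edgeR adjusted p 0.00437 and 0.000758), and neither passed 2-fold.

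The receptor of TRAIL with a death domain, Tnfrsf10b, overlapped between the lines at 0.343, 0.247 and 0.369 CPM in P6D4 and 0.426, 0.290 and 0.422 CPM in 70Z/3 (edgeR adjusted p 0.417). Cd40, the receptor through which T cells help B cells, was near the limit of detection in both lines, with 5, 1 and 6 counts in P6D4 and 4, 0 and 5 in 70Z/3. Tnfrsf1a, the death-domain receptor for TNF, had 1 count in P6D4 and 0 in 70Z/3. Ltbr, the lymphotoxin beta receptor, and Tnfrsf11b, the decoy osteoprotegerin, were at 0 in all 6 libraries. Tnfrsf11a, which encodes RANK, had 0 counts in P6D4 and 2 in 70Z/3. A count of 0 allows up to 3 counts per library, or 0.0616 CPM in P6D4 and 0.0666 CPM in 70Z/3, so lower levels were not detectable at this depth.

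Ltb, Tnf and Lta lie side by side within 11072 bp on chromosome 17, and the middle gene differed in the direction opposite to its neighbours. Tnf, the inflammatory cytokine (chr17:35199367-35202007), had 12.9, 15.2 and 14.3 CPM in P6D4, against 7.60, 7.77 and 7.93 CPM in 70Z/3. It was 1.82-fold higher in P6D4 and did not pass the 2-fold test. Lta, lymphotoxin alpha (chr17:35203165-35205578), had 0.252, 0.190 and 0.185 CPM in P6D4, against 1.04, 1.33 and 1.13 CPM in 70Z/3 (-2.46 ± 0.23 on the log2 scale, SE; edgeR adjusted p against 2-fold 1.27e-05). Ltb, lymphotoxin beta, which anchors Lta in the membrane (chr17:35194507-35196305), had 0.361, 0.455 and 0.267 CPM in P6D4, against 3.11, 3.67 and 3.44 CPM in 70Z/3. It was 9.32-fold lower in P6D4, and no library of the lines overlapped for any of the 3 genes.

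The 250 bases before a start site of each of these genes are shown because the neighbours differ in direction. They come from RefSeq on GRCm38.p6 and are written 5′ to 3′ on the gene's strand. Capitals mark matches to an NF-kB motif or to the TATA motif, searched on both strands. The NF-kB motif was 3 G, 2 of any base, 3 T and 2 C, and the TATA motif was TATAAA.
Ltb, chr17:35194257-35194506, + strand: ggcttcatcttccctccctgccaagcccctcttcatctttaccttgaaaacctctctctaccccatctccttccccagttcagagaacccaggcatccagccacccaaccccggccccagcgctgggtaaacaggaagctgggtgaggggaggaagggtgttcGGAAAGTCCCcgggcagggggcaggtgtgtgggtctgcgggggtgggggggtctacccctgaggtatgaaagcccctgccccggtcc
Tnf, chr17:35202008-35202257, - strand: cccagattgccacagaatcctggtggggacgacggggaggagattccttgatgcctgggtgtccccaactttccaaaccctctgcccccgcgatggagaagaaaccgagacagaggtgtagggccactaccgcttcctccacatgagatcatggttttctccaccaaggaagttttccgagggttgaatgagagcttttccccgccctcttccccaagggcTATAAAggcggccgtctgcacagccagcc
Lta, chr17:35205352-35205601, - strand: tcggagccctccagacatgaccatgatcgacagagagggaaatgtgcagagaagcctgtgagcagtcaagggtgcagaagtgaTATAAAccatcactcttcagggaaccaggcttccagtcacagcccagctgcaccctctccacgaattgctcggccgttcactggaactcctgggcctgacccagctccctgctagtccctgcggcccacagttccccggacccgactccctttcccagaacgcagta

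The Ltb window held 1 match to the NF-kB letters, on the reverse strand as GGAAAGTCCC, and the Tnf and Lta windows held none. Other forms of the motif and bases further upstream were not searched, so a window without a match may still have a site. A TATA match began 29 bases before the start of Tnf and 167 bases before the Lta start site that the table uses. That Lta site lies 227 bp inside the gene bounds given above, so 227 of the 250 bases of its window are within the gene, unlike those of Ltb and Tnf. The motifs do not overlap each other in these windows. Over all 32851 promoter windows of the table, 1.41% held the NF-kB letters and 12.4% the TATA letters. The 32 members with a window had 36 windows. In at least 1 window, 3 members held the NF-kB letters (Ltb, Tnfrsf9 and Tnfrsf25) and 6 the TATA letters. These are counts of genes, whereas the shares above are of windows. The windows of Tnfrsf9 and Tnfrsf25 also lie before start sites inside the gene bounds, and they are shown because they complete the set with that match.
Tnfrsf9, chr4:150927749-150927998, + strand: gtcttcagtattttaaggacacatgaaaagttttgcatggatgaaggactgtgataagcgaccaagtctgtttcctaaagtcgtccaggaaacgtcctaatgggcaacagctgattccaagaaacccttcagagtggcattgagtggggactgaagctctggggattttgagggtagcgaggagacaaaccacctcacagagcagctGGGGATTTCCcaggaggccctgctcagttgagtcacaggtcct
Tnfrsf25, chr4:152115684-152115933, + strand: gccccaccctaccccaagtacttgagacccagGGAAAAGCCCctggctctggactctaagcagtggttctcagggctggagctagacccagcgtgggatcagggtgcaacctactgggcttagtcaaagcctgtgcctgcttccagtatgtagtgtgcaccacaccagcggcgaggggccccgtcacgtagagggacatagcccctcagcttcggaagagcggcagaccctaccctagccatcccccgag
A match is a string of letters and not a measured site. Ltb and Tnfrsf9 were lower in P6D4, and Tnfrsf25 was higher.

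Of the 10 ligands tested, only Tnfsf14 was more than 2-fold higher in P6D4, and 6 were more than 2-fold lower (edgeR glmTreat; background 16.6% higher and 18.6% lower). Tnfsf14, which encodes LIGHT, a ligand of HVEM (chr17:57189474-57194181), had 3.12, 2.28 and 2.65 CPM in P6D4 and no count in any 70Z/3 library. It was at least 40.2-fold higher in P6D4. Tnfsf8, the ligand of CD30 (chr4:63831202-63861508), had 0.0180, 0 and 0 CPM in P6D4, against 10.1, 9.18 and 10.4 CPM in 70Z/3. With 1 count in P6D4, the ratio was 1552 in favour of 70Z/3 (95% counting interval 278 to 61363). The ligand and its receptor were thus on opposite sides: Tnfsf8 was read in 70Z/3 and Tnfrsf8 in P6D4.

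Tnfsf9, the ligand of 4-1BB, had 0.234, 0.152 and 0.144 CPM in P6D4, against 3.83, 3.79 and 3.06 CPM in 70Z/3 (log2 fold change -4.30 ± 0.21, SE). Tnfsf11, which encodes RANKL, the osteoclast differentiation factor that T cells and some B lineage cells make (chr14:78277446-78308043), had 4.69, 4.40 and 3.94 CPM in P6D4, against 27.6, 26.9 and 30.6 CPM in 70Z/3. It was 6.50-fold lower in P6D4 and was read in both lines, unlike its receptors. Tnfsf18, the ligand of GITR, had 0, 0 and 0.0205 CPM in P6D4, against 0.447, 0.332 and 0.355 CPM in 70Z/3. Its ratio of 59.3 in favour of 70Z/3 rests on 1 count in P6D4 (95% counting interval 10.2 to 2385).

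**Figure D3:**
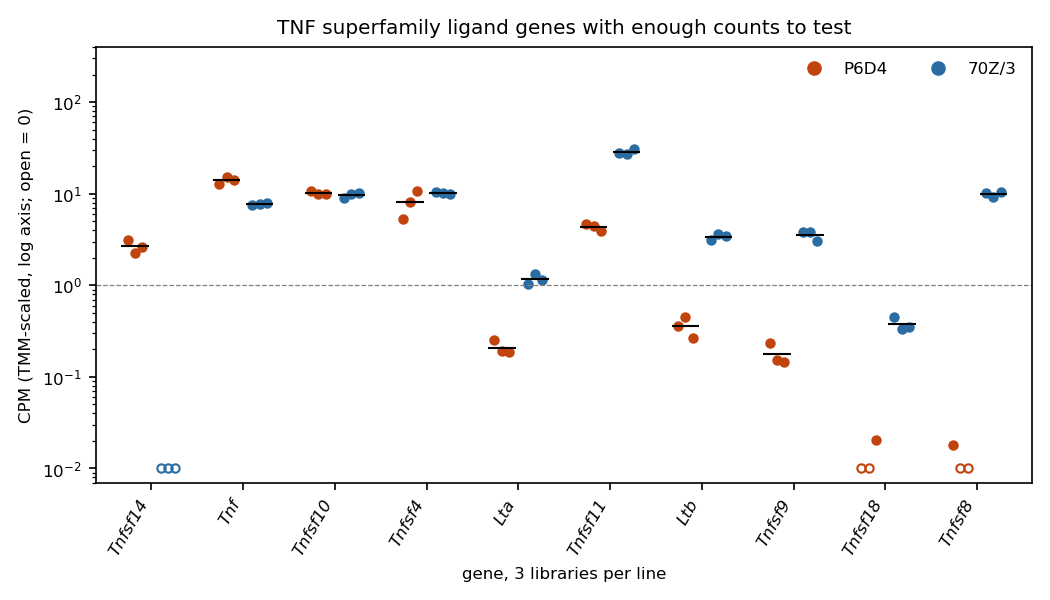
CPM on a log axis for the 10 ligand genes tested (x axis, ordered by log2 fold change); points are single libraries, P6D4 left of 70Z/3, open points are libraries at 0, the bar is the mean where no library is 0, and the dashed line is 1 CPM. Tnfsf10 and Tnfsf4 overlap between the lines, while Tnfsf14 and Tnfsf8 are each at or near 0 in 1 line.

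The ligands Tnfsf10 and Tnfsf4 overlapped between the lines. Tnfsf10, which encodes TRAIL, had 10.8, 9.94 and 9.91 CPM in P6D4 and 8.98, 9.82 and 10.2 CPM in 70Z/3 (0.08 ± 0.07 on the log2 scale, SE; edgeR adjusted p 0.307). Tnfsf4, the ligand of OX40, had 5.35, 8.18 and 10.7 CPM in P6D4 and 10.4, 10.2 and 9.95 CPM in 70Z/3. Its P6D4 libraries spread by 33.2% (coefficient of variation) against 2.45% in 70Z/3, and the difference was -0.34 ± 0.17 on the log2 scale (edgeR adjusted p 0.0763). Without P6D4 replicate 3 it was called lower in P6D4, at -0.59 (adjusted p 0.000864, over a range of 0.000864 to 0.304 across the alternatives).

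The other ligands had too few counts to test. Cd40lg and Cd70 were at 0 in all 6 libraries. Fasl, the ligand of Fas, had 4, 2 and 1 counts in P6D4 and 4, 4 and 1 in 70Z/3, and Tnfsf15 had 0 in P6D4 and 1 in 70Z/3. Tnfsf13b, which encodes BAFF, had 12, 9 and 13 counts in P6D4, against 2, 2 and 8 in 70Z/3. It entered the test under 3 alternatives and was called higher in P6D4 in each, with edgeR adjusted p 0.0230 without the count filter, 0.0275 without P6D4 replicate 2 and 0.00204 without 70Z/3 replicate 3, where it also passed 2-fold (0.0203). Tnfsf12 (TWEAK) and Tnfsf13 (APRIL) both lie inside the bounds of the readthrough gene Tnfsfm13 on chromosome 11 and overlap Tnfsf13os in part. Reads that 2 genes share count for neither, so the 0 counts of Tnfsf12 and Tnfsfm13, and the 2 counts of Tnfsf13 in 70Z/3, do not measure these ligands. Tnfsf13os had 16, 22 and 23 counts in P6D4, against 2, 4 and 1 in 70Z/3, and was called higher in P6D4 at 2.90 ± 0.45 on the log2 scale (SE). It also overlaps Senp3, and no source used here gives the strand setting of the counting, so its reads cannot be told apart from those of genes on the other strand. Likewise the bounds of Tnfrsf13b overlap Usp22, those of Tnfrsf12a Hcfc1r1 and those of Tnfrsf4 Sdf4.

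Read as pairs within a line, most listed pairs lacked a partner. A gene was taken as present where all 3 libraries of the line reached 1 CPM, which says nothing of protein. As CPM are not corrected for transcript length, this cut is not equally strict for every gene. Of a chosen list of 26 known ligand and receptor pairs, 3 were complete in P6D4, 3 in 70Z/3 and 0 in both. The list may leave out known pairs, and the counts hold for it only. The 26 include 3 pairs of Tnfsf12 or Tnfsf13, whose counts do not measure the ligand, so these could not be scored and 23 pairs remain. In P6D4 the complete pairs were Tnfsf14 with Tnfrsf14, Tnfsf4 with Tnfrsf4, and Tnfsf10 with the decoy Tnfrsf23. In 70Z/3 they were Tnf with Tnfrsf1b, Lta with Tnfrsf1b, and Tnfsf9 with Tnfrsf9. Across the lines, 2 pairs had the ligand in P6D4 and the receptor in 70Z/3: Tnf with Tnfrsf1b and Tnfsf14 with Tnfrsf14. Ligand in 70Z/3 and receptor in P6D4 held for 4: Tnfsf4 with Tnfrsf4, Tnfsf8 with Tnfrsf8, Tnfsf9 with Tnfrsf9, and Tnfsf10 with Tnfrsf23. All of these but Tnfsf8 with Tnfrsf8 are among the pairs complete within a line, as 1 partner was present in both lines.

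**Figure D4:**
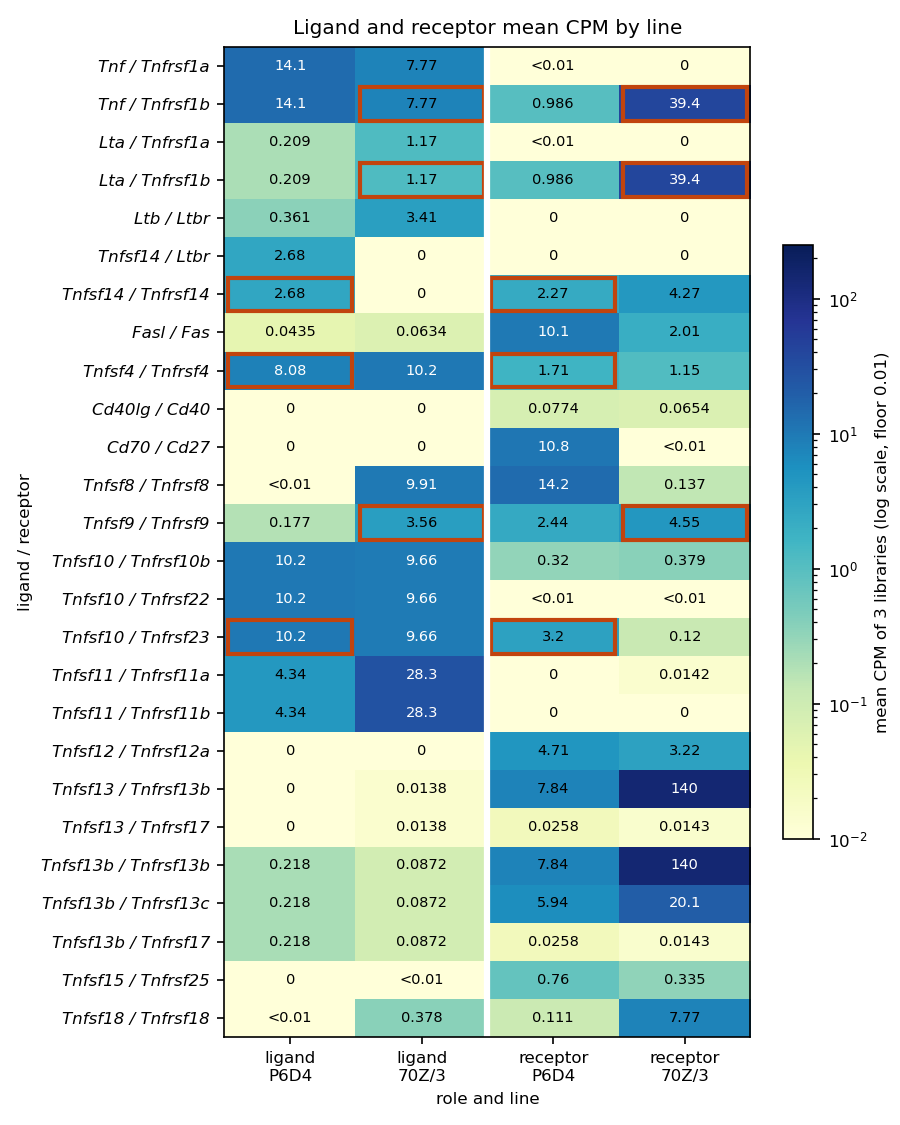
Mean CPM of 3 libraries (cell colour on a log scale, value printed) for ligand and receptor in P6D4 and 70Z/3 (columns) over the 26 pairs (rows); framed cells mark pairs with all 3 libraries of both genes at 1 CPM or more in that line. The frames fall on 3 pairs in P6D4 and 3 others in 70Z/3.

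The pairs split by which partner was missing. TNF had ligand RNA in both lines, while Tnfrsf1a was at 0 or 1 count and Tnfrsf1b averaged 0.986 ± 0.126 CPM in P6D4, against 39.4 ± 2.43 CPM in 70Z/3 (SD, n = 3). Fas was present in both lines and Fasl in neither. TACI and BAFF receptor were present in both lines, while Tnfsf13b averaged 0.218 ± 0.0480 CPM in P6D4, against 0.0872 ± 0.0783 CPM in 70Z/3 (SD, n = 3). RANKL was present in both lines and its receptors in neither. Cd27 was present in P6D4 with no Cd70 count in either line, and GITR was present in 70Z/3 with its ligand at 0.378 ± 0.0609 CPM there. Tnfrsf1b in P6D4 missed the threshold in 2 libraries, with P6D4 replicate 3 at 1.13 CPM, and Tnfrsf4 in 70Z/3 missed it only in replicate 3, at 0.933 CPM. The complete pairs depend on these: at 0.5 CPM 4 pairs were complete in each line and 2 in both, Tnf with Tnfrsf1b and Tnfsf4 with Tnfrsf4. Without 70Z/3 replicate 3, 4 pairs were complete in 70Z/3, and Tnfsf4 with Tnfrsf4 was complete in both lines. At 5 CPM 0 pairs were complete in P6D4 and 1 in 70Z/3.

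Downstream of the receptors, 37 of 39 listed adaptor and proximal signalling genes were present in P6D4 and 38 in 70Z/3. Those not present were Mlkl and Traf1 in P6D4 and Traf1 in 70Z/3. Mlkl and Ripk3, both genes of necroptosis, were lower in P6D4, where Ripk3 was still present. Against no change 14 were higher and 20 lower in P6D4 and 5 were not called. The background there was 43.3% of genes tested higher and 43.2% lower, so these counts say little about the list. Against 2-fold, 2 were higher and 6 lower, with a background of 16.6% and 18.6% of genes tested. The median log2 fold change of the list was -0.13, against 0.01 for all genes tested. Mlkl, the effector of necroptosis, had no count in P6D4, against 10.2, 10.2 and 10.4 CPM in 70Z/3, and was at least 167-fold lower in P6D4. Ripk3, the kinase that activates it, had 2.79, 3.53 and 3.90 CPM in P6D4, against 16.7, 18.2 and 18.7 CPM in 70Z/3 (-2.39 ± 0.10 on the log2 scale, SE; edgeR adjusted p against 2-fold 2.88e-09).

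Cflar, which encodes the caspase-8 inhibitor c-FLIP, had 32.4, 32.6 and 33.7 CPM in P6D4, against 160, 147 and 140 CPM in 70Z/3 (log2 fold change -2.18 ± 0.05, SE). Rel, an NF-kB subunit, and Traf1, an adaptor, were lower in P6D4, at -2.27 ± 0.07 and -2.09 ± 0.32 on the log2 scale (SE, edgeR adjusted p against 2-fold 2.31e-10 and 0.00173). Traf1 had few counts, 6, 4 and 7 in P6D4 against 22, 25 and 19 in 70Z/3, and was under 1 CPM in both lines. Birc3, an inhibitor of apoptosis and the remaining gene lower past 2-fold, averaged 9.07 ± 0.363 CPM in P6D4, against 36.9 ± 0.103 CPM in 70Z/3 (SD, n = 3). Traf5, an adaptor of costimulatory receptors such as Cd27 and OX40, had 16.2, 16.3 and 17.5 CPM in P6D4, against 6.23, 6.17 and 6.29 CPM in 70Z/3. It and Tab1, a subunit of the TAK1 kinase complex, were the 2 genes more than 2-fold higher in P6D4, at 1.42 ± 0.07 and 1.38 ± 0.05 on the log2 scale (SE). The call of Traf1 past 2-fold was not made by DESeq2 (adjusted p 0.109).

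**Figure D5:**
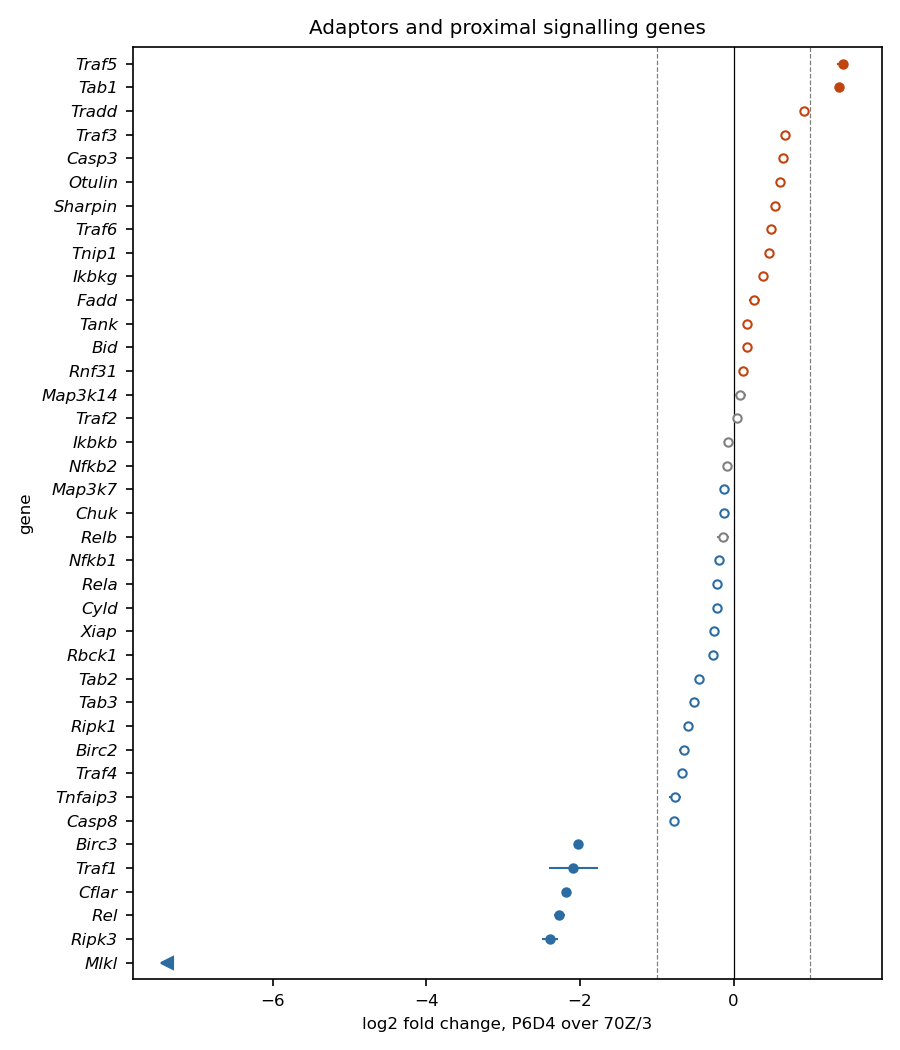
Log2 fold change of P6D4 over 70Z/3 (x axis) for 39 adaptor and proximal signalling genes (y axis), with SE; circles filled past 2-fold, open if called against no change only and grey if not called. Mlkl is a lower bound of 167-fold; most other genes lie between the dashed 2-fold lines.

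Other genes of the superfamilies have symbols outside the rule. Ngfr, the low-affinity nerve growth factor receptor, had 49, 43 and 29 counts in P6D4, against 0, 3 and 0 in 70Z/3, a ratio of 36.1 in favour of P6D4 (95% counting interval 12.0 to 177). Relt, a receptor of the family, averaged 17.7 CPM in P6D4, against 15.9 CPM in 70Z/3 and was not called (edgeR adjusted p 0.0654). Eda and Edar were at 0 in all libraries, and Eda2r had too few counts to test.

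Miz1, encoded by Zbtb17, was mapped by ChIP-Seq once per line, so the peaks have no replicate check. In the P6D4 list 0 of 43 members had a summit 1 kb or less from either end of the gene, where 1.08% of protein-coding genes did. In the 70Z/3 list 1 summit lay within 1 kb of 2 members, Tnfsf13 and Tnfsf12, where 2.98% of protein-coding genes had one. It stood 53 bp before the start of Tnfsf13 and 633 bp outside the lower-coordinate end of Tnfsf12. It also lay within the bounds of Tnfsf13os and Tnfsfm13, away from their ends. The authors gave it a pileup of 10 tags and a fold of 6.67. That fold was shared by 1279 peaks of that list and was below its median of 7.28. The window is shown because it holds this summit; capitals mark the 11 bases centred on it.
Tnfsf13, chr11:69685555-69685804, - strand: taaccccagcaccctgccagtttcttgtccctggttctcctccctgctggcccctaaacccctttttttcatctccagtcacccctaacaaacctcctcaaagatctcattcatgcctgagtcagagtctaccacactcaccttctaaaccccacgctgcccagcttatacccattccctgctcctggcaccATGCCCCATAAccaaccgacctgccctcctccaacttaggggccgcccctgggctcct
Other single summits lay within gene bounds, away from the ends. In the P6D4 list they were in Tnfrsf11a, Tnfrsf21 and Tnfsf15, with folds of 4.80 to 7.69. In the 70Z/3 list they were in Tnfrsf8 and Tnfrsf19, with folds of 5.46 to 6.67. The Tnfrsf19 summit lay 324 bp from an alternative start site of that gene. Tnfrsf21 had a summit in P6D4, where it had no count. Tnfrsf11a and Tnfsf15 had no count there either, but only 2 counts and 1 count in 70Z/3. The Tnfrsf19 summit was in the line where that gene was higher (223 CPM in 70Z/3 and 16.1 CPM in P6D4). The Tnfrsf8 summit was in the line where that gene was lower (0.137 CPM in 70Z/3 and 14.2 CPM in P6D4). A link between summits and RNA was not tested.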

How the data were processed

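The authors deposited 1 file of whole-number gene counts for each RNA library. Per the submitters' processing notes, TopHat2 2.0.10 and Bowtie2 2.10 were among the tools, besides HTSeq, bedtools and SAMtools, and the builds named were GRCm38 and mm10. The RNA kit keeps strand, per the labels' protocols. The 5 HTSeq summary lines were left out. Among uniquely aligned reads, 14.5 to 16.0% fell outside genes and 0.382 to 0.424% were ambiguous. Alignments that were not unique came to 1.1 to 1.14 per count in genes in P6D4 and 1.41 to 1.44 in 70Z/3. They were left out of the counts, and what this difference between the lines does to the values was not tested. Symbols came from a name table that matched 36345 of 38293 genes. Per the file headers, MACS 2.0.10.20120913 called the Miz1 peaks, with 1 library per line; the deposited pileup is a signal in tags, the fold is a ratio over local background, and the q-value threshold was 0.01. Gene bounds and promoters are RefSeq's, on GRCm38.p6; the peaks' build was taken as mm10, per the labels.

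Counts were fitted with edgeR 4.0.16 in R 4.3.3 (filterByExpr, TMM, quasi-likelihood test, glmTreat at a log2 fold change of 1), with line as the only term and adjustment over 13750 genes. CPM use TMM-scaled library sizes. The SE is the log2 fold change divided by the square root of F. A line at 0 was set at 3 counts in its shallowest library; ratios on 1 to 3 counts carry exact 95% intervals (scipy 1.17.1), and both cover counting error only. DESeq2 1.42.0, other scalings, no filter, a replicate block and leaving out each library were alternatives. The fit was tested on simulated data. Every tested member is named with its values, and of the signalling list the 6 largest rises and falls past 2-fold. Members and lists were chosen with earlier results of these data known. A gene of the signalling list is not reported here, and the list's counts leave it out. The histone mark and input libraries were not used here. Figures used matplotlib 3.10.9.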

Additional observations from a re-analysis of the deposited data

How the results depend on the processing

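The 28 members and 8 named signalling genes kept their direction under all alternatives. These were the scalings tried, the DESeq2 test, the missing filter, the replicate block and the omission of each library. Against no change, 393 of the values kept their side of the adjusted p threshold, and 3, all of Tnfsf4, passed it. It passed without the count filter (edgeR adjusted p 0.00825), with the replicate block (0.0439) and without P6D4 replicate 3 (0.000864). Against 2-fold, the call of Traf1 was not made by DESeq2 (adjusted p 0.109). Counts of members stayed at 10 to 11 higher and 15 to 16 lower in P6D4, and past 2-fold at 6 to 7 and 12. Shared replicate numbers carry no stated pairing of the libraries. Deviations of libraries with the same number correlated at -0.063, -0.047 and 0.010. With 3 libraries per line, this cannot decide whether they were paired. With the replicate block 10 members were higher and 16 lower. Complete pairs were 0 in P6D4 and 1 in 70Z/3 at 5 CPM, and 3 or 4 per line under the other alternatives. With summits within 5 kb, 4 members had a Miz1 peak in the 70Z/3 list, all from the summit at Tnfsf13, and 0 in the P6D4 list. In the signalling list, Rnf31 (adjusted p 0.0336) lost its call under 5 alternatives, with adjusted p of 0.0589 to 0.132, and Map3k7 lost its own without P6D4 replicate 3 (0.0706). Ikbkb, Nfkb2 and Map3k14 gained calls under at most 2 alternatives each. Leaving out 70Z/3 replicate 1 for Cd27, P6D4 replicate 1 for Tnfsf8 or P6D4 replicate 3 for Tnfsf18 removes the only count of the lower line and leaves it at 0. Depth limits the genes with few counts in a line, and those with 0 to 3 are given as bounds or intervals. Tnfsf13os, Tnfrsf18, Tnfrsf23, Tnfrsf8 and, in the signalling list, Traf1, with 7 to 19, have an SE that understates counting error. The same holds for Tnfsf9, Lta, Ltb and Tnfrsf1b, with 28, 33, 57 and 154 counts in P6D4.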
